A study of Homo sapiens with 30 samples.

Results

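The transcripts described here belong to the BCL2 family, the proteins that decide whether mitochondria release the factors that start apoptosis. They were taken by gene name from a table of 58735 genes and are 10 in number, in 3 roles. The BH3-only genes are BMF, BCL2L11 (BIM), PMAIP1 (NOXA), BBC3 (PUMA) and BIK, the survival genes are MCL1, BCL2L1 (BCL-XL) and BCL2A1 (BFL-1), and the effectors are BAX and BAK1. All 10 were among the 17499 genes with enough counts to be tested.

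The study asked how blocking PIM kinases differs from degrading them in PC3 cells, a line grown from a bone metastasis of prostate cancer. Cells received the PROTAC SGI-1776-VHL-02 at 1500 or 3750 nM, the PIM kinase inhibitor SGI-1776 at 1500 or 3750 nM, or the solvent DMSO, each for 48 h. A PROTAC is a chimeric molecule that brings its target to a ubiquitin ligase, so that the proteasome destroys the target. Each of the 5 groups had 6 libraries of polyadenylated RNA, named Rep 1 and Rep 2 with 3 numbered libraries in each. All groups are the same parental line with no genetic change in the labels, and no group received an inactive or non-binding form of the PROTAC.

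BAX and BAK1 form the pores that open the outer mitochondrial membrane. MCL1, BCL-XL and BFL-1 hold them in check, and the BH3-only proteins release that hold by occupying the groove of the survival proteins. BIM and PUMA bind all main survival proteins, NOXA prefers MCL1 and BFL-1, and BMF and BIM are also known as sensors of detachment and growth factor loss. PIM kinases are survival kinases known to phosphorylate the BH3-only protein BAD, which is regulated at the protein level.

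Libraries held 22520292 to 48968707 counts assigned to genes. The epithelial genes KRT8, KRT18, EPCAM and CDH1, with VIM and CD44, lay between 63.4 and 597 CPM, counts scaled to library size, in every library. Mitochondrial transcripts took 1.94 to 3.96% of counts in the Rep 1 libraries and 0.296 to 1.66% in the Rep 2 libraries. Bulk RNA cannot tell fewer cells that express a gene from less of its RNA per cell.

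The windows around the annotated starts of the 4 genes whose RNA is described in most detail or that held a searched motif are printed here, because BMF, BCL2L11, PMAIP1 and BCL2A1 took different courses under the compounds. Each is the RefSeq sequence of build GRCh38.p14, from 250 bases before to 50 bases after the start, read 5′ to 3′ on the strand of the gene. Capitals mark the letters of a FOXO motif or of the amino acid response element of ATF4. The windows are chr15:40108830-40109129 on the minus strand for BMF, chr2:111120664-111120963 on the plus strand for BCL2L11, chr18:59899746-59900045 on the plus strand for PMAIP1 and chr15:79971147-79971446 on the minus strand for BCL2A1.
BMF: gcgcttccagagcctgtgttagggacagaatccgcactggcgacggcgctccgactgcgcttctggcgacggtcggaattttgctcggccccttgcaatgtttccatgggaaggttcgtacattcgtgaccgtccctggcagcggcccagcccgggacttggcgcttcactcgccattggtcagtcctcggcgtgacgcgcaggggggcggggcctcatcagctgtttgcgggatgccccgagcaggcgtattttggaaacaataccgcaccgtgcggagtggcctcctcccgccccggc
BCL2L11: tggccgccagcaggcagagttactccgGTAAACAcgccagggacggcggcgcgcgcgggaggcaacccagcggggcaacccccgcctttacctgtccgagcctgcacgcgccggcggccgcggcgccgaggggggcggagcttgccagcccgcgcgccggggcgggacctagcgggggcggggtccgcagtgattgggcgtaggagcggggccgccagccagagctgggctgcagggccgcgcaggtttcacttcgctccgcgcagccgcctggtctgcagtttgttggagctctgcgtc
PMAIP1: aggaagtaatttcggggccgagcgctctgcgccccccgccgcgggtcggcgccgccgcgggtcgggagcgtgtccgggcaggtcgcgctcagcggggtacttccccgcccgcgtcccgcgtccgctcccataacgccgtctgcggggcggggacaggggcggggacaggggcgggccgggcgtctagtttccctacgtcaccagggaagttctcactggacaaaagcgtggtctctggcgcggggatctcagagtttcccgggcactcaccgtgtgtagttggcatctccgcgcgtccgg
BCL2A1: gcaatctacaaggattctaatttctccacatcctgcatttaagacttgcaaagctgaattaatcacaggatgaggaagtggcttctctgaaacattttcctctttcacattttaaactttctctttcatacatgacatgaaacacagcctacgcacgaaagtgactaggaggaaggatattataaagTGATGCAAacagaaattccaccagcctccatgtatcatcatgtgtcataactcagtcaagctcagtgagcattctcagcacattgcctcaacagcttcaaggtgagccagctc

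The FOXO motif was searched as TGTTTAC and its reverse complement GTAAACA, and the ATF4 element as TGATGNAA and its reverse complement TTNCATCA, on both strands. RefSeq windows were found for 8 of the 10 genes, 10 windows in all. The FOXO letters occurred in the BCL2L11 window, 223 bases before the RefSeq start, and 3.42% of 35116 windows of all genes hold them. The ATF4 letters occurred in the BCL2A1 window as TGATGCAA, 63 bases before the RefSeq start, and 3.62% of all windows hold that element. The RefSeq starts differ from the ends of the gene spans given below. The BCL2L11 and BCL2A1 windows lie wholly inside those spans. Neither motif was in the BMF or PMAIP1 window printed above. A loose NF-kB pattern, with a run of G at its start and a pair of C at its end, occurred on either strand in the BMF, PMAIP1 and BCL2L11 windows but also in 58.7% of all windows. These are matches of letters only and do not show binding.

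In solvent-treated cells the survival genes BCL2L1 and MCL1 had the highest levels of the set per unit length, and the survival gene BCL2A1 the second lowest. Levels are given as RPKM, which is CPM per kilobase of gene. BCL2L1 averaged 83.4 RPKM and MCL1 63.6 RPKM in DMSO cells, followed by the effectors BAK1 at 38.7 and BAX at 18.2 RPKM. PMAIP1 was the highest BH3-only gene at 11.9 RPKM. BIK averaged 3.42 RPKM, BCL2L11 2.46, BMF 1.48, BCL2A1 0.891 and BBC3 0.558. Over the 6 DMSO libraries the ranges of BCL2A1, 0.559 to 1.05 RPKM, and BBC3, 0.421 to 0.721 RPKM, overlapped, and no other neighbours in this order did. Under SGI-1776 at 3750 nM the mean level of BMF, 3.49 RPKM, lay above those of BCL2L11 at 3.03 RPKM and BIK at 2.77 RPKM, although its range of 3.21 to 3.72 RPKM overlapped both of theirs. Under SGI-1776-VHL-02 at 3750 nM PMAIP1, at 18.7 RPKM, lay beside BAX, at 18.5 RPKM, with overlapping ranges, and BIK averaged 5.28 RPKM.

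**Figure D1:**
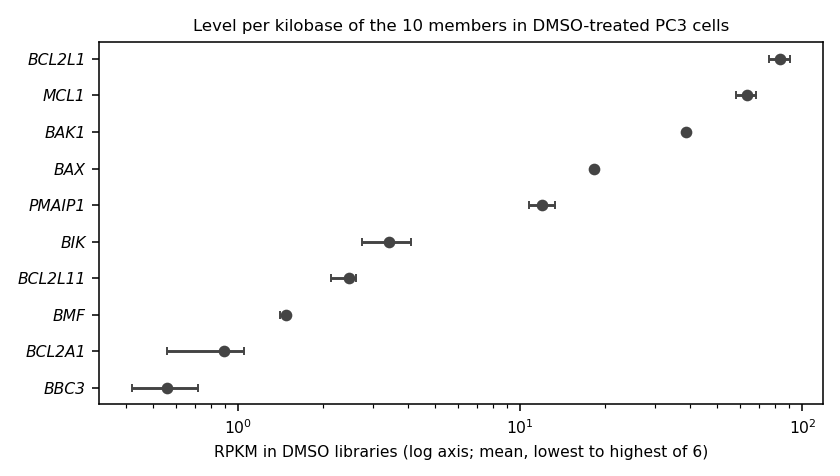
Mean RPKM of the 10 genes in the 6 DMSO libraries on a log axis, with bars from the lowest to the highest library. BCL2L1 and MCL1 lie highest at 83.4 and 63.6 RPKM, and BCL2A1 and BBC3 lie lowest with overlapping ranges.

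Compared directly at 3750 nM, the PROTAC and the inhibitor were furthest apart in BCL2A1, BMF, BIK and PMAIP1. With SGI-1776-VHL-02, PMAIP1, BIK, BBC3 and, by a small amount, BMF rose at 3750 nM. SGI-1776 came with a rise of BMF and a fall of BCL2A1 at both doses. MCL1, BCL2L1 and BAK1 passed in none of the 9 comparisons fitted by group alone, with lowest unadjusted p of 0.0304, 0.0275 and 0.177 and 0 calls in DESeq2. With Rep as a replicate block, MCL1 passed in 5 of the 9 comparisons, BCL2L1 in 4 and BAK1 in 0. A gene was called when its adjusted p was under 0.05 in edgeR's quasi-likelihood test, with Benjamini-Hochberg adjustment over the 17499 genes tested. Log2 fold changes are given with their standard errors.

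The count of calls stands beside the share of all tested genes called in the same comparison. With SGI-1776-VHL-02 at 3750 nM against DMSO, 4 of the 10 genes were called, all higher, where 21.8% of all genes were called, 11.5% higher and 10.3% lower. With SGI-1776-VHL-02 at 1500 nM against DMSO, 0 were called by edgeR, 2 had an unadjusted p under 0.05 and DESeq2 called 2, where edgeR called 1.92% of all genes, 1.07% higher and 0.851% lower. For SGI-1776 at 3750 nM against DMSO, 5 were called, 2 higher and 3 lower, where 35.6% of all genes were called, 17.2% higher and 18.4% lower. With SGI-1776 at 1500 nM against DMSO, 3 were called, 1 higher and 2 lower, where 12.9% of all genes were called, 5.28% higher and 7.65% lower. Between the compounds, 5 genes were called at 1500 nM, 4 of them higher with SGI-1776-VHL-02, where 25.2% of all genes were called, 14.4% higher and 10.7% lower. At 3750 nM 6 were called, 4 of them higher with SGI-1776-VHL-02, where 31.2% of all genes were called, 17.6% higher and 13.5% lower.

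Samples of the same Rep deviated together, and a fit with Rep as a replicate block called more genes throughout. Against DMSO it called 6 of the 10 genes with SGI-1776-VHL-02 at 3750 nM and 2 at 1500 nM, where it called 30.1% and 9.42% of all genes. It called 8 with SGI-1776 at 3750 nM and 7 at 1500 nM, where it called 44.1% and 21.6% of all genes. Between the compounds it called 7 at 3750 nM and 8 at 1500 nM, where it called 39.5% and 36.5% of all genes.

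Scaling by library size alone, in place of TMM, changed the balance of calls. Of all genes it called 2089 higher and 3364 lower with SGI-1776-VHL-02 than with SGI-1776 at 3750 nM, against 3080 and 2371 with TMM, and 1614 and 2802 at 1500 nM, against 2527 and 1881. For the inhibitor against DMSO it called 3737 higher and 2623 lower at 3750 nM, against 3016 and 3217, and 1322 and 896 at 1500 nM, against 924 and 1339. For the PROTAC against DMSO it called 1765 higher and 2153 lower at 3750 nM, against 2011 and 1796, and 120 and 222 at 1500 nM, against 187 and 149. Among the 10 genes it called 3 higher and 2 lower for SGI-1776 at 3750 nM and 2 higher and 1 lower at 1500 nM. MCL1 was gained (adjusted p = 0.0198, edgeR) and PMAIP1 lost (adjusted p = 0.138) at 3750 nM, and BCL2L11 gained (adjusted p = 0.0197) and BAX lost (adjusted p = 0.0889) at 1500 nM. Between the compounds at 1500 nM it called 3 higher and 2 lower, with BCL2L11 gained as lower (adjusted p = 0.0107) and BAX lost (adjusted p = 0.122).

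With so many genes called throughout the transcriptome, the counts alone do not set these genes apart, and the description below rests on the single genes. The median log2 fold change of the 10 genes was 0.13 with SGI-1776-VHL-02 at 3750 nM against DMSO, and that of all tested genes was 0.00. With SGI-1776 at 3750 nM the 2 medians were -0.09 and 0.01. Because the 10 genes were chosen with earlier results of these data known, these medians only describe them. The comparisons with DMSO share its 6 libraries.

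**Figure D2:**
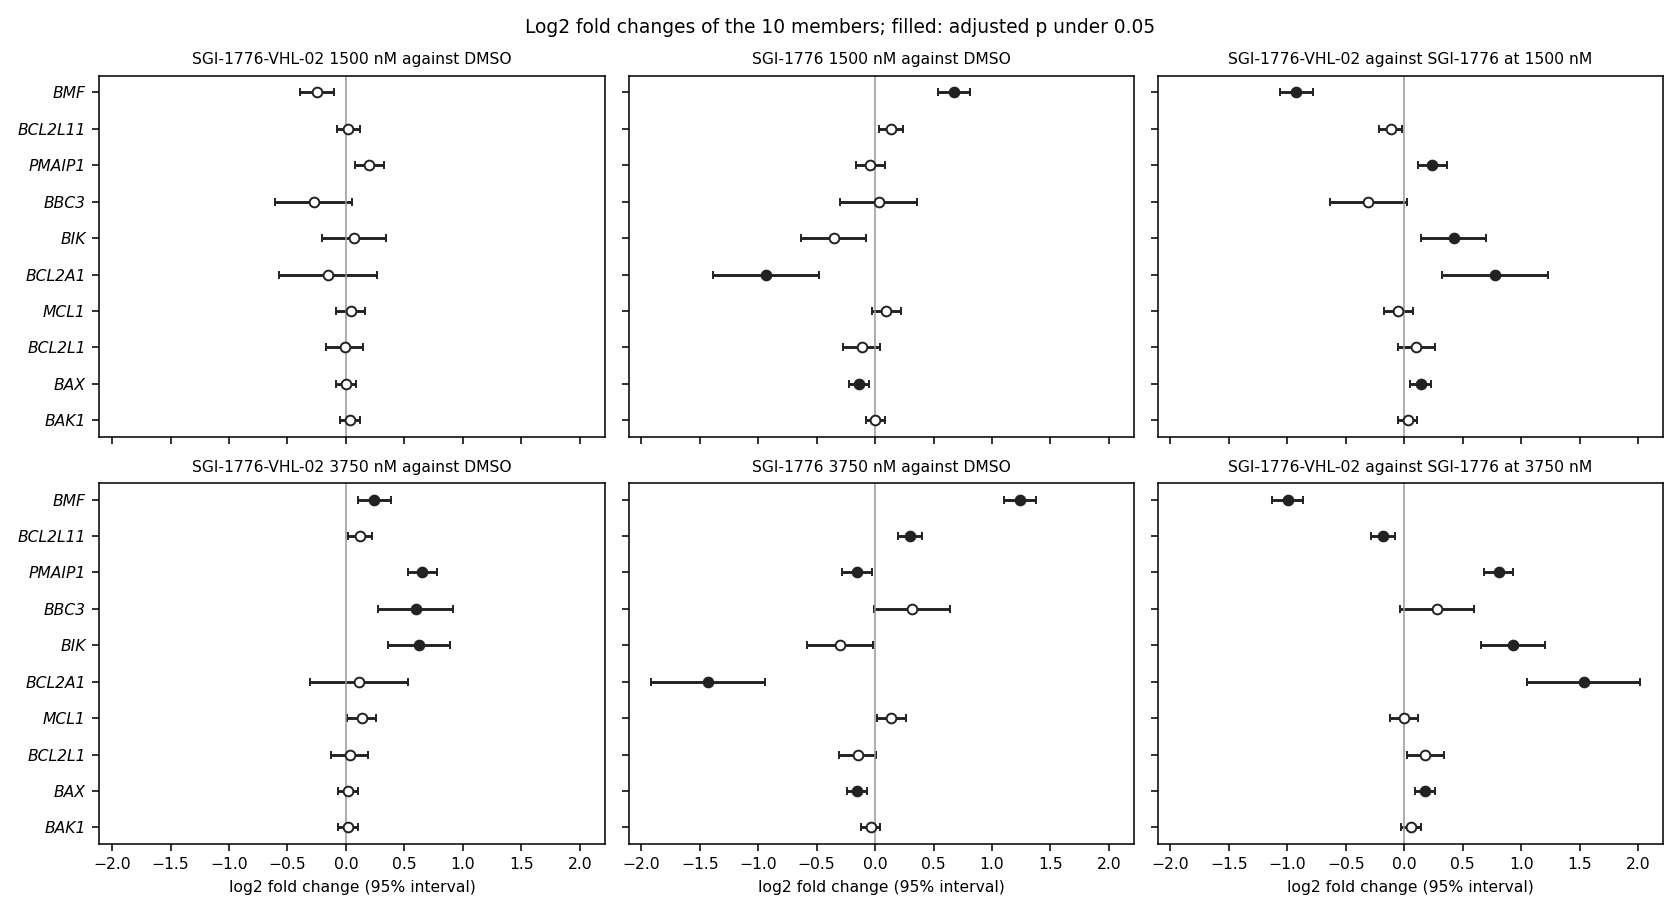
Log2 fold changes with 95% intervals for the 10 genes at 1500 nM (top row) and 3750 nM (bottom row), for SGI-1776-VHL-02 against DMSO, SGI-1776 against DMSO, and SGI-1776-VHL-02 against SGI-1776. Filled points have an adjusted p under 0.05, and BMF stands at 0.24 in the PROTAC panel and 1.24 in the inhibitor panel at 3750 nM.

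BMF, whose protein is held on the cytoskeleton until released, carried the largest rise in the set. The gene spans chr15:40087890-40108892 on the minus strand of GRCh38. Under SGI-1776 its lowest, median and highest libraries had 11.0, 12.9 and 14.1 CPM at 1500 nM and 17.5, 19.1 and 20.2 CPM at 3750 nM, against 7.67, 8.14 and 8.22 CPM in DMSO cells. All inhibitor libraries lay above all DMSO libraries, and the 2 inhibitor doses did not overlap. The log2 fold change was 0.67 ± 0.07 at 1500 nM (adjusted p = 8.78e-08, edgeR) and 1.24 ± 0.07 at 3750 nM (adjusted p = 1.09e-14), a 2.36-fold rise with a 95% interval of 1.10 to 1.38 on the log2 scale. It was the gene 72nd from the top among 17499 at 3750 nM, ordered by log2 fold change.

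Under SGI-1776-VHL-02, BMF had 6.15, 6.82 and 7.28 CPM at 1500 nM and 8.45, 9.38 and 11.4 CPM at 3750 nM in the lowest, median and highest libraries. The lower dose lay wholly below the DMSO range and the higher dose wholly above it. At 1500 nM the log2 fold change of -0.25 ± 0.07 against DMSO did not pass (adjusted p = 0.0587, edgeR), and with Rep as a replicate block it did (adjusted p = 0.0254; 0.0996 with libraries also summed per Rep). At 3750 nM it rose by 0.24 ± 0.07 (adjusted p = 0.0098), and leaving out its Rep 2 (2) library, the highest at 11.4 CPM, brought the adjusted p to 0.0604. This rise passed in neither Rep alone, at 0.20 in Rep 1 (adjusted p = 0.153) and 0.27 in Rep 2 (adjusted p = 0.066). Against SGI-1776 at the same dose, SGI-1776-VHL-02 had less BMF RNA, with log2 differences of -0.92 ± 0.07 at 1500 nM (adjusted p = 5.69e-11) and -0.997 ± 0.07 at 3750 nM (adjusted p = 4.66e-13). The libraries of the 2 compounds did not overlap at either dose. Between doses BMF rose by 0.49 ± 0.07 under SGI-1776-VHL-02 and by 0.57 ± 0.06 under SGI-1776, and the 2 steps differed by -0.08 (95% interval -0.27 to 0.12, adjusted p = 0.859).

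BCL2L11 encodes BIM, a BH3-only protein that binds all main survival proteins, and spans chr2:111119378-111168447 on the plus strand. Under SGI-1776 at 3750 nM it had 18.3, 20.1 and 21.5 CPM in the lowest, median and highest libraries, against 14.2, 16.8 and 17.4 CPM in DMSO cells. The 2 groups did not overlap. It rose by 0.30 ± 0.05 on the log2 scale (adjusted p = 1.32e-05, edgeR). At 1500 nM the change of 0.14 ± 0.05 did not pass (adjusted p = 0.0616), and did with a replicate block (adjusted p = 0.0187; 0.121 with libraries also summed per Rep). SGI-1776-VHL-02 at 3750 nM gave 16.8, 17.6 and 19.2 CPM, overlapping DMSO, and a change of 0.12 ± 0.05 (adjusted p = 0.0856; 0.0326 with a replicate block, and 0.134 when also summed). At that dose BCL2L11 was lower with SGI-1776-VHL-02 than with SGI-1776, by -0.18 ± 0.05 (adjusted p = 0.00479). Their difference at 1500 nM, -0.12 ± 0.05, did not pass (adjusted p = 0.0814; 0.0314 with a replicate block, and 0.171 when also summed).

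A long non-coding gene, MIR4435-2HG, overlaps BCL2L11 and shares 727 of its 6658 exonic bases. That gene fell by 0.41 on the log2 scale with SGI-1776 at 3750 nM, opposite to BCL2L11. Since no source used here gives the strand setting of the counting, reads from shared bases cannot be told apart.

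PMAIP1 encodes NOXA, which binds MCL1 and marks it for degradation, and spans chr18:59899948-59904306 on the plus strand. With SGI-1776-VHL-02 at 3750 nM its lowest, median and highest libraries had 39.4, 41.5 and 46.1 CPM, against 23.9, 26.3 and 29.8 CPM in DMSO cells. No library of the 2 groups overlapped. The rise was 0.65 ± 0.06 on the log2 scale, 1.57-fold (adjusted p = 1.09e-09, edgeR). Within Rep 1 the log2 fold change was 0.82 and within Rep 2 it was 0.47, both past the threshold. At 1500 nM the PROTAC gave 27.3, 30.2 and 35.6 CPM and a change of 0.20 ± 0.06 that did not pass (adjusted p = 0.0835; 0.0211 with a replicate block, and 0.0746 when also summed).

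PMAIP1 was not higher under SGI-1776. Its libraries had 23.6, 25.6 and 29.3 CPM at 1500 nM and 22.8, 23.4 and 26.2 CPM at 3750 nM, both overlapping DMSO. The call of a fall of 0.15 ± 0.06 at 3750 nM (adjusted p = 0.0488, edgeR) was lost without any of 15 of the 30 libraries and in DESeq2 (adjusted p = 0.0586). SGI-1776-VHL-02 exceeded SGI-1776 by 0.24 ± 0.06 at 1500 nM (adjusted p = 0.00354) and by 0.81 ± 0.06 at 3750 nM (adjusted p = 6.66e-12), where the libraries did not overlap. PMAIP1 was the 1 gene of the 10 called in the test of compound by dose, where 2.67% of all genes were called, 1.66% higher and 1.02% lower (6.21% with a replicate block). Its step between doses was 0.45 ± 0.06 with SGI-1776-VHL-02 and -0.11 ± 0.06 with SGI-1776, a difference of 0.57 ± 0.09 (adjusted p = 7.18e-05). In Rep 2 alone that difference was 0.40 (adjusted p = 0.097), and in Rep 1 alone it was 0.74.

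BBC3 encodes PUMA, a potent BH3-only protein, and spans chr19:47220822-47232766 on the minus strand. It was sparse, with 28 to 93 counts per library. Under SGI-1776-VHL-02 at 3750 nM it had 2.00, 2.76 and 2.97 CPM in the lowest, median and highest libraries, against 1.34, 1.76 and 2.29 CPM in DMSO cells. The lowest PROTAC library lay within the DMSO range and the other 5 above it. It rose by 0.60 ± 0.16 (adjusted p = 0.00515, edgeR), with 0.80 in Rep 1 and 0.37 in Rep 2, where the adjusted p was 0.294. Under SGI-1776 at 3750 nM the change was 0.31 with a 95% interval of -0.01 to 0.64 (adjusted p = 0.128), with 0.51 in Rep 1 (adjusted p = 0.0498) and 0.11 in Rep 2 (adjusted p = 0.776). The difference between the compounds at that dose, 0.28, had an interval of -0.03 to 0.60 (adjusted p = 0.178), an interval that holds 0 and a moderate excess alike. At 1500 nM the PROTAC libraries had 1.11, 1.37 and 1.95 CPM, overlapping DMSO. Their change against DMSO was -0.28 ± 0.16 (adjusted p = 0.409, edgeR). The difference from SGI-1776 at 1500 nM was -0.31 ± 0.16 (adjusted p = 0.168). It was -0.55 in Rep 1 (adjusted p = 0.0459) and -0.03 in Rep 2 (adjusted p = 0.95).

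BIK encodes a BH3-only protein of the endoplasmic reticulum and spans chr22:43110748-43129712 on the plus strand. SGI-1776-VHL-02 at 3750 nM gave 4.59, 5.05 and 5.31 CPM in the lowest, median and highest libraries, against 2.61, 3.30 and 3.91 CPM in DMSO cells, with no overlap. BIK rose by 0.63 ± 0.13 (adjusted p = 5.59e-04, edgeR), by 0.92 within Rep 1 and 0.36 within Rep 2. SGI-1776 at 3750 nM gave 2.00, 2.60 and 3.26 CPM, and its change of -0.30 ± 0.14 did not pass (adjusted p = 0.0902). It passed with a replicate block (adjusted p = 0.0333) and in Rep 2 alone (adjusted p = 0.0242), but not with libraries summed per Rep and the block (adjusted p = 0.105). At 1500 nM the change of -0.35 ± 0.14 did not pass either (adjusted p = 0.0885), and the same 3 fits gave an adjusted p of 0.0248, 0.00848 and 0.119. SGI-1776-VHL-02 exceeded SGI-1776 by 0.93 ± 0.13 at 3750 nM (adjusted p = 2.11e-06), where no library overlapped. At 1500 nM the difference was 0.42 ± 0.13 (adjusted p = 0.0199), a call lost without any of 5 libraries and when the 4 libraries with under 0.5% mitochondrial counts were left out (adjusted p = 0.137).

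**Figure D3:**
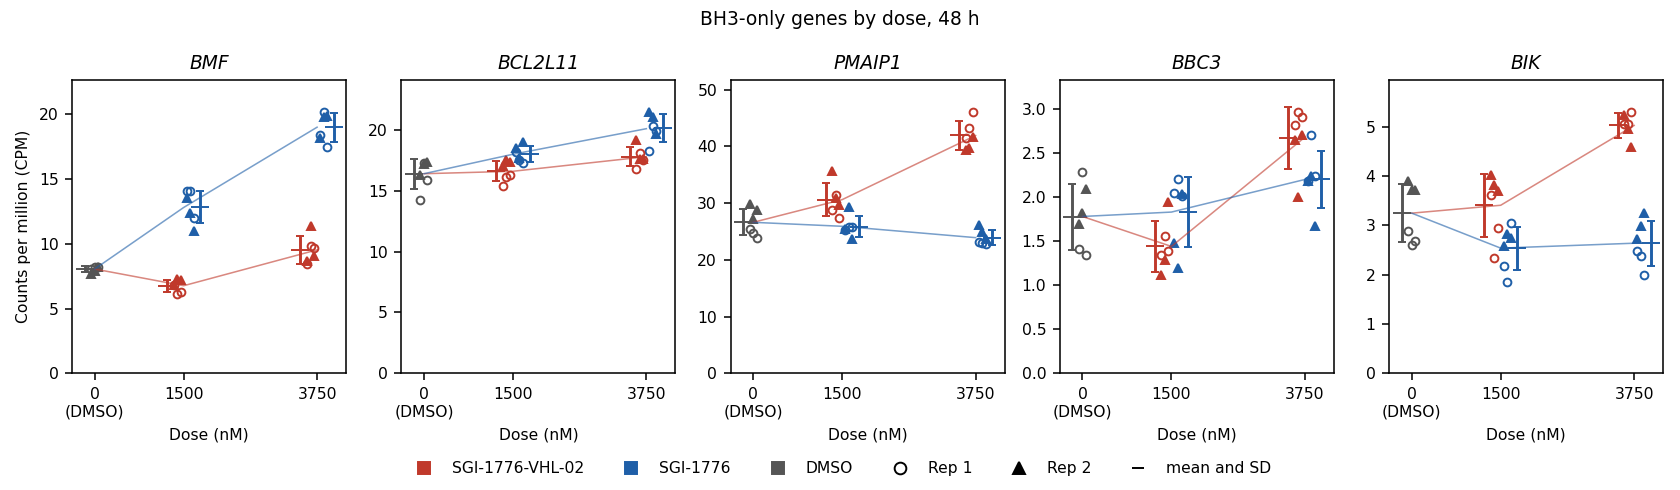
CPM of the 5 BH3-only genes against dose in nM, with DMSO at 0, open circles for Rep 1 and filled triangles for Rep 2, and bars for the mean and SD of 6 libraries. BMF climbs under SGI-1776 to a median of 19.1 CPM, and PMAIP1 under SGI-1776-VHL-02 to a median of 41.5 CPM.

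BCL2A1, an inducible survival gene best known from leukocytes, moved against BMF. The gene spans chr15:79960889-79971446 on the minus strand, and its counts were low, 6 to 42 per library. SGI-1776 gave 0.291, 0.522 and 0.635 CPM at 1500 nM and 0.230, 0.292 and 0.653 CPM at 3750 nM in the lowest, median and highest libraries, against 0.609, 1.02 and 1.15 CPM in DMSO cells. The lowest DMSO library overlapped the highest SGI-1776 libraries, and the other 5 lay above all inhibitor libraries. It fell by 0.93 ± 0.22 at 1500 nM (adjusted p = 0.00446, edgeR) and by 1.43 ± 0.24 at 3750 nM (adjusted p = 1.77e-05). At 1500 nM the fall did not pass within Rep 1 alone (adjusted p = 0.112) or Rep 2 alone (adjusted p = 0.0613). At 3750 nM it passed in both (adjusted p = 0.00811 and 0.00203). Ordered by log2 fold change it was the 12th gene from the lowest at 3750 nM.

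BCL2A1 was not called with SGI-1776-VHL-02 against DMSO. The PROTAC libraries had 0.671, 0.890 and 1.08 CPM at 1500 nM and 0.695, 0.968 and 1.65 CPM at 3750 nM. The changes against DMSO were -0.15 (95% interval -0.57 to 0.27) and 0.11 (-0.31 to 0.53). Against SGI-1776 the PROTAC had more BCL2A1 RNA, by 0.78 ± 0.22 at 1500 nM (adjusted p = 0.00918, edgeR) and 1.53 ± 0.24 at 3750 nM (adjusted p = 6.23e-06). The difference at 1500 nM did not pass within Rep 1 alone (adjusted p = 0.112) or Rep 2 alone (adjusted p = 0.0886). All 10 leukocyte markers looked at stayed below 1 CPM in every library. BCL2A1 itself lay at 0.230 to 1.65 CPM, so markers at this level cannot tell the source of its RNA. Their summed level was 0.812 to 2.04 CPM with SGI-1776-VHL-02 at 3750 nM, 1.05 to 1.70 CPM with SGI-1776 at 3750 nM and 0.701 to 1.75 CPM in DMSO cells, and MS4A1 had 0 counts throughout.

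MCL1 and BCL2L1, the survival genes with the highest levels here, showed small differences. MCL1 spans chr1:150574551-150579738 and BCL2L1 chr20:31664452-31723989, both on the minus strand. MCL1 had 281, 307 and 330 CPM in the lowest, median and highest SGI-1776-VHL-02 libraries at 3750 nM and 279, 305 and 330 CPM under SGI-1776 at 3750 nM, against 254, 280 and 300 CPM in DMSO cells. The groups overlapped, but within every group the Rep 1 libraries lay wholly below the Rep 2 libraries, for example at 254 to 264 and 296 to 300 CPM in DMSO cells. The changes at 3750 nM were 0.14 ± 0.06 for both compounds against DMSO (adjusted p = 0.113 for SGI-1776-VHL-02 and 0.0774 for SGI-1776, edgeR). With Rep as a replicate block both passed (adjusted p = 2.18e-06 for SGI-1776-VHL-02 and 8.31e-07 for SGI-1776). Both also passed with libraries summed per Rep and the block (adjusted p = 0.00742 for SGI-1776-VHL-02 and 0.00468 for SGI-1776). The difference between the compounds was -0.00, with a 95% interval of -0.13 to 0.12. The block also brought 3 smaller MCL1 differences past the threshold. These were 0.09 with SGI-1776 at 1500 nM (adjusted p = 0.362 without and 7.32e-04 with the block), -0.05 between the compounds at 1500 nM (0.578 and 0.0406) and 0.09 between the doses of SGI-1776-VHL-02 (0.314 and 4.94e-04). With libraries also summed they did not pass (adjusted p = 0.0745, 0.286 and 0.0697).

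BCL2L1 had 262, 284 and 301 CPM with SGI-1776-VHL-02 at 3750 nM and 210, 253 and 284 CPM with SGI-1776 at 3750 nM, against 252, 276 and 300 CPM in DMSO cells. Its Rep 1 libraries again lay wholly below its Rep 2 libraries in every group. The change with SGI-1776 was -0.15 ± 0.08 (adjusted p = 0.145, edgeR; 4.89e-05 with a replicate block), and that with SGI-1776-VHL-02 was 0.03 with an interval of -0.13 to 0.19. Between the compounds the difference at 3750 nM was 0.18 ± 0.08 (adjusted p = 0.0791; 2.97e-06 with a replicate block). With libraries also summed per Rep, the change with SGI-1776 and the difference between the compounds still passed (adjusted p = 0.013 and 0.00235). The block also brought past the threshold a change of -0.11 with 1500 nM of SGI-1776 (adjusted p = 0.39 without and 0.00345 with the block) and a difference of 0.10 between the compounds at that dose (0.358 and 0.00522), neither of which passed when also summed (adjusted p = 0.138 and 0.0898). The antisense gene ABALON covers 1424 of the 3314 exonic bases of BCL2L1 and itself fell by 0.56 with SGI-1776 and by 0.41 with SGI-1776-VHL-02 at 3750 nM. Without a known strand setting the 2 cannot be told apart in shared bases.

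Differences of the effectors were small. BAX, at chr19:48954815-48961798 on the plus strand, had 42.2, 42.8 and 44.2 CPM with SGI-1776 at 1500 nM and 40.9, 42.5 and 44.4 CPM at 3750 nM, against 46.8, 47.2 and 47.6 CPM in DMSO cells. The inhibitor libraries lay wholly below the DMSO libraries at both doses. The falls were small, 0.14 ± 0.04 (adjusted p = 0.027, edgeR) and 0.15 ± 0.04 (adjusted p = 0.00425), and the first was lost without any of 7 libraries. SGI-1776-VHL-02 gave 43.0, 47.8 and 52.7 CPM at 3750 nM, a change of 0.02 (95% interval -0.06 to 0.11) against DMSO. BAX was higher with SGI-1776-VHL-02 than with SGI-1776 by 0.14 ± 0.04 at 1500 nM (adjusted p = 0.0138), lost without either of the Rep 1 PROTAC libraries (1) and (2), and by 0.18 ± 0.04 at 3750 nM (adjusted p = 0.00163). Within Rep 1 alone both differences passed, at 0.20 (adjusted p = 0.0117) and 0.22 (adjusted p = 0.00552). Within Rep 2 alone neither did, at 0.07 (adjusted p = 0.337) and 0.13 (adjusted p = 0.0773).

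BAK1, at chr6:33572547-33580293 on the minus strand, had 81.9, 87.7 and 90.7 CPM with SGI-1776-VHL-02 and 76.8, 84.5 and 89.7 CPM with SGI-1776 at 3750 nM, against 83.9, 85.6 and 87.6 CPM in DMSO cells. All groups overlapped, and its lowest unadjusted p in the 9 comparisons was 0.177. The 95% intervals at 3750 nM were -0.07 to 0.10 for SGI-1776-VHL-02 and -0.12 to 0.05 for SGI-1776.

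**Figure D4:**
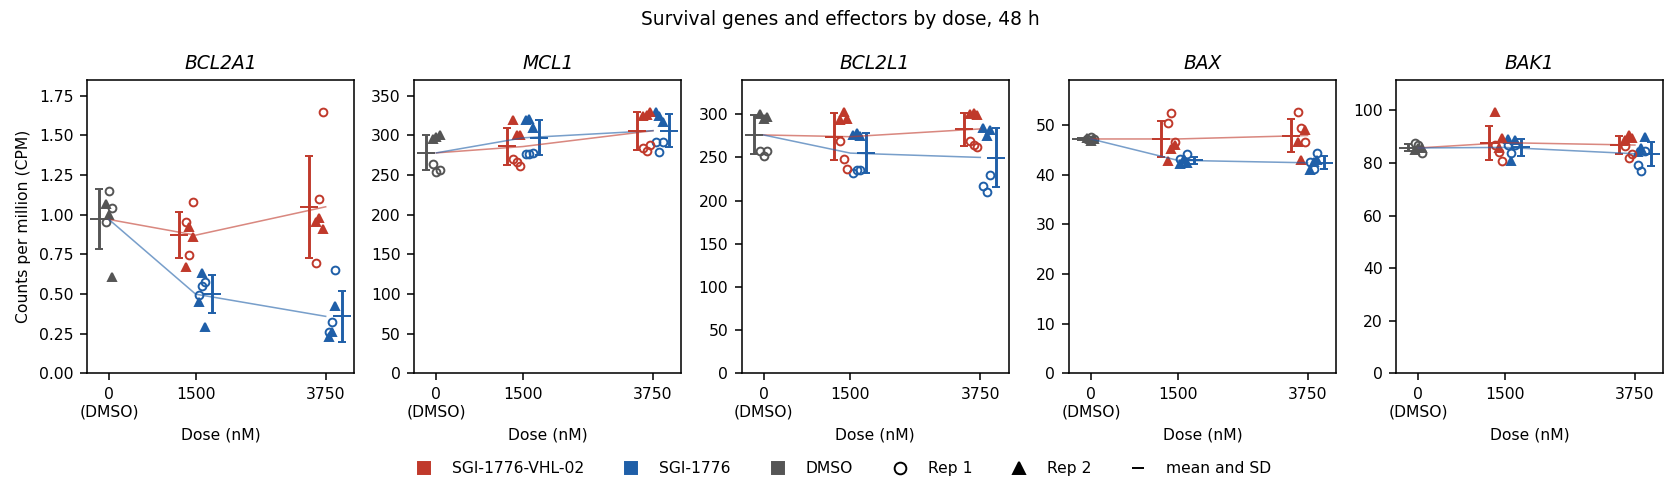
CPM of the 3 survival genes and 2 effectors against dose in nM, with DMSO at 0, symbols as Rep 1 (open circles) and Rep 2 (filled triangles), and bars for the mean and SD of 6 libraries. BCL2A1 falls under SGI-1776 to a median of 0.292 CPM at 3750 nM, and the Rep 1 libraries of MCL1 and BCL2L1 lie below those of Rep 2 in every group.

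Between the doses of SGI-1776, 2 of the 10 genes were called, both higher at 3750 nM, where 9.15% of all genes were called, 4.46% higher and 4.69% lower, and 17.3% with a replicate block. They were BMF and BCL2L11. The BCL2L11 step was 0.16 ± 0.05 (adjusted p = 0.0322, edgeR), a call lost without any of 14 libraries. Between the doses of SGI-1776-VHL-02, 4 were called, all higher at 3750 nM, where 19% of all genes were called, 9.23% higher and 9.74% lower, and 29.2% with a replicate block. BBC3 had the largest step, 0.87 ± 0.16 (adjusted p = 1.23e-04), followed by BIK at 0.56 ± 0.13 (adjusted p = 0.0021), BMF and PMAIP1. The BBC3 step began from a mean of 1.44 CPM at 1500 nM, below the 1.78 CPM of DMSO cells. That lower level was not called. For BBC3 and BIK the steps differed between the compounds by 0.59 and 0.51, which did not pass (adjusted p = 0.21 and 0.204), and BIK passed with a replicate block (adjusted p = 0.0415; 0.172 with libraries also summed per Rep).

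**Figure D5:**
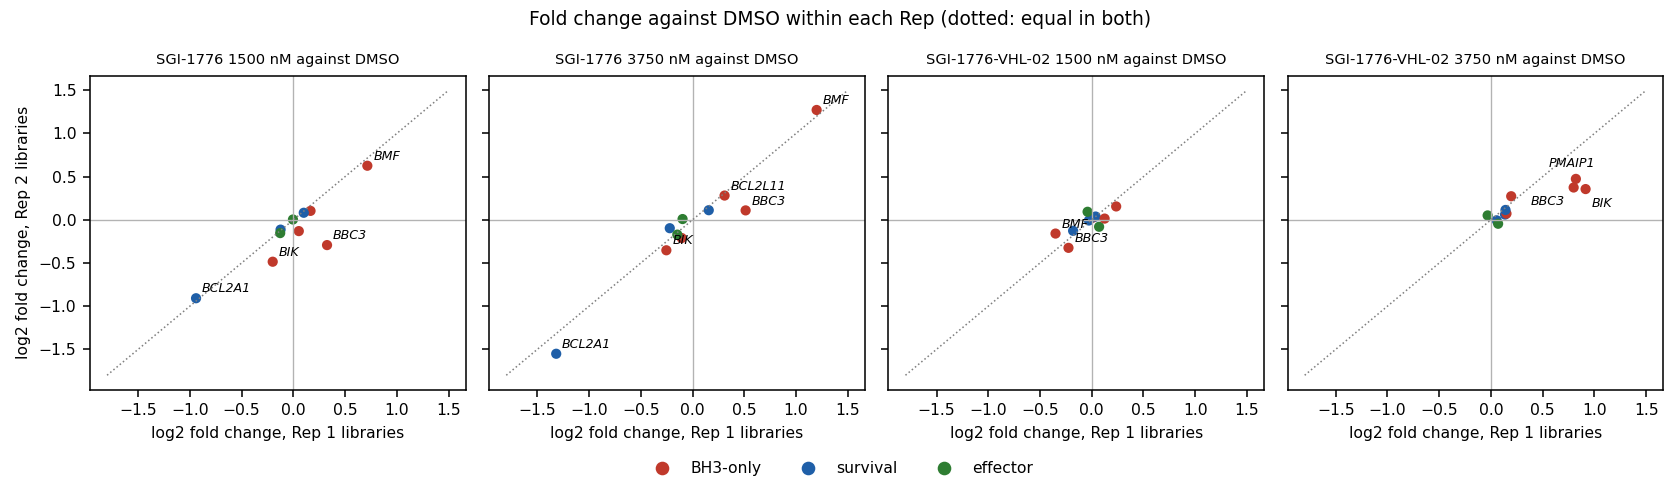
Log2 fold change against DMSO in the Rep 2 libraries (vertical) and in the Rep 1 libraries (horizontal) for the 10 genes in the 4 treated groups, coloured by role, with the dotted line at equal change. PMAIP1, BIK and BBC3 lie below the line under SGI-1776-VHL-02 at 3750 nM, with 0.82, 0.92 and 0.80 in Rep 1 and 0.47, 0.36 and 0.37 in Rep 2.

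The labels do not say whether the 3 libraries of a Rep came from separate cultures. When they were summed, which left 2 samples a group, 8 of the 30 calls over the 9 comparisons passed. Those were BMF (adjusted p = 0.0012, edgeR) and BCL2A1 (adjusted p = 0.012) under 3750 nM of the inhibitor, PMAIP1 under 3750 nM of the PROTAC (adjusted p = 0.0138), BMF between the compounds at 1500 nM (adjusted p = 0.0152), and BMF, BCL2A1, PMAIP1 and BIK between the compounds at 3750 nM (adjusted p = 9.24e-04, 0.00628, 0.00241 and 0.0367). Of all genes, the summed fit called 1.47% with SGI-1776-VHL-02 and 6.9% with SGI-1776 at 3750 nM against DMSO, and 5.91% and 0.745% between the compounds at 3750 and 1500 nM. The dose step of SGI-1776-VHL-02 had 0.493%, and the other comparisons 0%. With Rep as a replicate block the same sums gave 31 calls among the 10 genes, 24 higher and 7 lower. Against the 30 calls from single libraries, 3 were lost there, BAX under 1500 nM of the inhibitor (adjusted p = 0.108), PMAIP1 under 3750 nM of the inhibitor (adjusted p = 0.0812) and the BCL2L11 dose step of SGI-1776 (adjusted p = 0.0912), and 4 were gained, the MCL1 and BCL2L1 values at 3750 nM given above.

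The genes whose log2 CPM over the 30 libraries followed BMF most closely, among 11429 genes with a mean of at least 5 CPM, were PBXIP1 (r = 0.963), MIA3 (0.962), GSTK1 (0.962), HIST1H4H (0.962) and ADGRF1 (0.958). PBXIP1, for example, averaged 76.7 CPM with SGI-1776-VHL-02 and 130.0 CPM with SGI-1776 at 3750 nM, against 69.2 CPM in DMSO cells. Those closest to BCL2A1 were IGFBP3 (r = 0.876), CDH11 (0.865), SIRPA (0.857), TOMM34 (0.855) and ZPR1 (0.854). IGFBP3 averaged 91.5 CPM with SGI-1776-VHL-02 and 49.7 CPM with SGI-1776 at 3750 nM, against 90.3 CPM in DMSO cells. The points share libraries and groups, so these Pearson values only describe likeness over the same treatments.

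Among 13 further BCL2 relatives, 11 were tested. Of all tested genes, 11.5% were called higher and 10.3% lower with SGI-1776-VHL-02 at 3750 nM against DMSO. With SGI-1776 at 3750 nM these shares were 17.2% and 18.4%. With SGI-1776-VHL-02 at 3750 nM against DMSO 2 rose, the mitophagy receptors BNIP3L (0.29 ± 0.08, adjusted p = 0.00716, edgeR) and BNIP3 (0.25 ± 0.04, adjusted p = 7.75e-05), and 2 fell, BCL2 itself (-0.42 ± 0.11, adjusted p = 0.00658) and BCL2L12 (-0.26 ± 0.04, adjusted p = 9.67e-07). Under 3750 nM of SGI-1776, 2 fell, among them BCL2L12 (-0.38 ± 0.04, adjusted p = 6.33e-10). BCL2, the founding survival gene, averaged 3.07 CPM with SGI-1776-VHL-02 and 4.07 CPM with SGI-1776 at 3750 nM, against 4.09 CPM in DMSO cells. The median log2 fold change of the 11 genes was 0.05 with SGI-1776-VHL-02 and -0.01 with SGI-1776, and that of all tested genes 0.00 and 0.01.

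Of 15 genes of the apoptosome, the caspases and the factors released by mitochondria, all tested, 3 fell with SGI-1776-VHL-02 at 3750 nM, including the mitochondrial nuclease gene ENDOG (-0.41 ± 0.07, adjusted p = 2.17e-05, edgeR) and AIFM1, the gene of apoptosis-inducing factor (-0.29 ± 0.04, adjusted p = 2.71e-06). The inhibitor at 3750 nM had 3 rise and 5 fall, and ENDOG (-0.29, adjusted p = 8.16e-04) and AIFM1 (-0.13, adjusted p = 0.0142) were among those that fell. The initiator caspase gene CASP9 rose by 0.21 ± 0.04 (adjusted p = 2.26e-04), and CYCS, the gene of cytochrome c, fell by 0.26 ± 0.04 (adjusted p = 2.69e-06). CYCS was also among the 3 that fell with SGI-1776-VHL-02 at 3750 nM (-0.12, adjusted p = 0.0286). Among all genes, 11.5% were called higher and 10.3% lower with SGI-1776-VHL-02 at 3750 nM, and 17.2% and 18.4% with SGI-1776. The medians of the list were -0.09 with SGI-1776-VHL-02 and -0.10 with SGI-1776.

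A list of 14 genes, transcription regulators with BH3-only genes among their known targets and TRIB3, was tested whole. With SGI-1776-VHL-02 at 3750 nM 6 rose, where 11.5% of all genes were called higher and 10.3% lower. With SGI-1776 at 3750 nM those shares were 17.2% and 18.4%. TRIB3, a pseudokinase gene induced by stress, rose by 1.46 ± 0.09 (adjusted p = 4.13e-14, edgeR), ATF4, the effector of the integrated stress response, by 0.90 ± 0.06 (adjusted p = 9.7e-13), and its target DDIT3 (CHOP) by 0.81 ± 0.09 (adjusted p = 2.51e-08). Under 3750 nM of SGI-1776, 4 rose and 1 fell: DDIT3 rose by 0.65 ± 0.09 (adjusted p = 6.7e-07), the forkhead factor gene FOXO4 by 0.51 ± 0.07 (adjusted p = 4.44e-07) and ATF4 by 0.30 ± 0.06 (adjusted p = 2.08e-04), while the cell cycle factor gene E2F1 fell by 0.39 ± 0.04 (adjusted p = 6.2e-10). Between the compounds at 3750 nM, SGI-1776-VHL-02 had more TRIB3 (1.32 ± 0.08), CEBPB (0.68 ± 0.07) and ATF4 RNA (0.60 ± 0.06) and less FOXO4 RNA (-0.49 ± 0.07), each past the threshold. FOXO3 rose with both, by 0.20 with SGI-1776-VHL-02 (adjusted p = 0.0207) and 0.27 with SGI-1776 (adjusted p = 0.00101). Its difference between the compounds, -0.07, did not pass (adjusted p = 0.444). FOXO1 was called against DMSO with neither compound at that dose. Between the compounds it was lower with SGI-1776-VHL-02 (-0.26 ± 0.10, adjusted p = 0.0492, edgeR). The medians of the list were 0.01 with SGI-1776-VHL-02 and 0.09 with SGI-1776 against DMSO. Whether these regulators acted on the genes above was not tested.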

How the data were processed

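Polyadenylated RNA of 30 PC3 libraries was measured, 6 in each of 5 groups. The authors deposited raw read counts per gene, made with featureCounts 1.5.0-p3 on GRCh38 (hg38) per the submitters' processing notes. The aligner and its settings are not given in the sources used here, and the labels' protocols name both a directional and a non-directional second strand, so the strand setting is unknown. Libraries held 22520292 to 48968707 counts. Reads are not independent molecules, and the depth limits BCL2A1, BBC3 and BIK most.

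Counts were filtered with filterByExpr, scaled by TMM and tested in edgeR 4.0.16 (R 4.3.3) with glmQLFit and glmQLFTest in a model of 5 groups over all 30 libraries. The tests were two-sided, p-values were adjusted over 17499 genes by Benjamini-Hochberg, and the threshold was 0.05. A gene's SE is its log2 fold change divided by the square root of F, and 95% intervals use the t distribution of the fit. CPM are scaled by TMM, and RPKM use the gene length of the table. The scripts were tested on simulated data.

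The labels do not say that libraries are separate cultures, so p-values measure the spread between these libraries, which may be technical. The labels give groups the same Rep numbers. The Rep 2 minus Rep 1 difference over genes correlated between all 10 pairs of groups (r = 0.507 to 0.672). The main fit uses groups alone and leaves this pairing out. A fit with Rep as a replicate block was run beside it, and the blocked value is printed where it changes a call.

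The 10 genes and all lists were chosen with earlier results of these data known. All 10 are named in every comparison where they bear on it. Of a list, genes to name were drawn from those called in the fit of groups and also with libraries summed per Rep and the block. Up to 3 per direction were taken by size of change. Not all of these are named, and values of FOXO1, FOXO3, AIFM1 and CYCS are also given to compare the compounds. The lists are further BCL2 relatives, apoptosome genes and caspases, inhibitors of apoptosis, the death receptor arm, ubiquitin enzymes of MCL1 and BIM, and transcription regulators with TRIB3. Markers of epithelial, leukocyte and fibroblast or endothelial cells were checked: of the last, COL1A1 (27.2 to 63.3 CPM) and PECAM1 (3.92 to 6.34 CPM) were present and the other 4 did not exceed 1 CPM.

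Alternatives were Rep as a replicate block, DESeq2 1.42.0, its size factors in edgeR, library size only, no count filter, libraries summed per Rep with and without the block, each Rep left out, each library left out, and leaving out 4 libraries with under 0.5% mitochondrial counts. Protein sequences were not analysed here. Some marker genes that were checked are not reported here.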

Additional observations from a re-analysis of the deposited data

Results flagged for a closer look

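The level of BCL2A1 in the library DMSO Rep 2 (3) was 0.609 CPM, far from the other 5 DMSO libraries, which had 0.951 to 1.15 CPM. The level of BBC3 in the Rep 2 (2) library of SGI-1776-VHL-02 at 3750 nM was 2.0 CPM, far from the other 5 libraries of that group, which had 2.65 to 2.97 CPM. Both are low counts. They are the 2 that stood out among 50 sets of 6 libraries examined by gap over range, and chance marks about 1 in 20 such sets.

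The dose step of PMAIP1 differed between the compounds. It was 0.45 with SGI-1776-VHL-02 and -0.11 with SGI-1776 on the log2 scale, a difference of 0.57 (edgeR interaction, adjusted p = 7.18e-05). The step was upward in both Reps with SGI-1776-VHL-02, at 0.58 in Rep 1 and 0.32 in Rep 2, and with SGI-1776 it was -0.16 in Rep 1 and -0.08 in Rep 2, neither past the threshold.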

How the results depend on the processing

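With Rep as a replicate block, 7 of the 10 genes were called for SGI-1776 1500 nM, 8 for SGI-1776 3750 nM and 2 for SGI-1776-VHL-02 1500 nM against DMSO, 8 between the compounds at 1500 nM and 2 for the interaction. It ended none of the 30 calls. With libraries summed per Rep, the counts were 0 for SGI-1776 1500 nM (edgeR, 2 at an unadjusted p under 0.05), 2 for SGI-1776 3750 nM, 1 for SGI-1776-VHL-02 3750 nM, 1 between the compounds at 1500 nM, and 0 for either dose step and for the interaction (edgeR, 4, 1 and 2 at an unadjusted p under 0.05 for SGI-1776-VHL-02, SGI-1776 and the interaction), and adding the block gave 1 for the SGI-1776 dose step. For SGI-1776-VHL-02 1500 nM, DESeq2 called 2 and library size only 1. The SGI-1776 dose step gave 1 with no count filter and 1 without the libraries of under 0.5% mitochondrial counts. Leaving out a library or a Rep gave 1 to 4 calls for SGI-1776 1500 nM, 4 to 7 for SGI-1776 3750 nM, 0 to 2 for SGI-1776-VHL-02 1500 nM, 3 to 4 for SGI-1776-VHL-02 3750 nM, 4 to 6 and 6 to 7 between the compounds at 1500 and 3750 nM, 1 to 2 and 4 to 4 for the dose steps of SGI-1776 and SGI-1776-VHL-02, and 0 to 1 for the interaction. Over all genes, SGI-1776-VHL-02 3750 nM had 3807 calls (309 to 5274 over the alternatives that keep all libraries), SGI-1776 3750 nM 6233 (1454 to 7724), SGI-1776-VHL-02 1500 nM 336 (0 to 1649) and SGI-1776 1500 nM 2263 (0 to 3772), the lowest when summed and the highest with the block. Between the compounds there were 5451 (1246 to 6911) at 3750 nM and 4408 (157 to 6386) at 1500 nM. No value that passed in either of 2 fits changed sign, in 3600 comparisons. The causes were not tested. DESeq2 gave no adjusted p for BCL2A1 with SGI-1776 1500 nM. Depth limits BCL2A1, at 6 to 42 counts per library, and BBC3, at 28 to 93.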

Other observations

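Among 7 genes of inhibitor of apoptosis proteins, which block caspases or guard cell division, 6 were tested. BIRC5 (survivin) fell at 3750 nM with both compounds, by 0.41 ± 0.05 with SGI-1776-VHL-02 (adjusted p = 3.2e-08, edgeR) and by 0.50 ± 0.05 with SGI-1776 (adjusted p = 3.58e-10) on the log2 scale. With SGI-1776 at 3750 nM 3 fell, the others being BIRC3 (-0.56 ± 0.14, adjusted p = 0.00237) and BIRC2 (-0.15 ± 0.05, adjusted p = 0.0257). BIRC3 was higher with SGI-1776-VHL-02 than with SGI-1776 by 0.84 ± 0.14 (adjusted p = 2.24e-05). Among all genes, 10.3% were called lower with SGI-1776-VHL-02 at 3750 nM and 18.4% with SGI-1776. The list's median was 0.04 with SGI-1776-VHL-02 and 0.02 with SGI-1776.

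In the death receptor arm 9 of 12 genes were tested. Among all genes, 11.5% were called higher and 10.3% lower with SGI-1776-VHL-02 at 3750 nM, and 17.2% and 18.4% with SGI-1776. With SGI-1776-VHL-02 at 3750 nM 1 rose, the receptor gene FAS, by 0.32 ± 0.11 (adjusted p = 0.0394, edgeR). With SGI-1776 at 3750 nM 2 rose and 2 fell. The death ligand gene TNFSF10, sparse at a mean of 0.728 CPM in DMSO cells, rose by 0.62 ± 0.23 (adjusted p = 0.0367). The decoy protease gene CFLAR rose by 0.28 ± 0.05 (adjusted p = 1.56e-04). The adaptor gene FADD fell by 0.34 ± 0.07 (adjusted p = 1.23e-04) and the receptor gene TNFRSF10B by 0.13 ± 0.04 (adjusted p = 0.00723). Of 7 ubiquitin enzymes of MCL1 and BIM, all tested, CDC20 fell by 0.42 ± 0.04 with SGI-1776-VHL-02 (adjusted p = 2.98e-10) and by 0.74 ± 0.04 with SGI-1776 (adjusted p = 2.53e-15) at 3750 nM. TRIM2, a ligase known to bind BIM, was lower with SGI-1776-VHL-02 than with SGI-1776 at 3750 nM by 1.04 ± 0.12 (adjusted p = 2.11e-08) and rose with SGI-1776 against DMSO by 0.75 ± 0.11 (adjusted p = 4.75e-06). The medians at 3750 nM against DMSO were 0.07 with SGI-1776-VHL-02 and 0.04 with SGI-1776 for the death receptor arm, and 0.06 and 0.03 for the ubiquitin enzymes.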
